A study of Mus musculus with 43 samples.

Results

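The SR splicing factors examined here were the 10 genes Srsf1, Srsf2, Srsf3, Srsf4, Srsf5, Srsf6, Srsf7, Srsf9, Srsf10 and Srsf11. They were picked by their GENCODE vM21 symbols and matched to the gene identifiers of the RNA tables without the version, and 10 of 10 were found among 55401 identifiers. The study asked what the arginine methyltransferase Prmt1 does in mouse spermatogonia, the germ cells that divide before meiosis. RNA was measured at postnatal day 7 (P7) in 10 libraries, and 33 lists of CUT&Tag peaks gave 7 histone marks at P7 and P14.

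In bulk RNA-seq, polyadenylated RNA of the whole testis was read in 3 WT and 3 Prmt1-dKO libraries, although the labels give spermatogonia as the cell type. In Smart-seq2, a low-input protocol, EGFP-positive cells sorted from P7 testes were read in 2 WT and 2 Prmt1-dKO libraries. Prmt1-dKO mice carried Prmt1 alleles with exons 4 and 5 flanked by lox sites and the Ddx4-CreERT2 knock-in, which also carries EGFP and is active in germ cells, and received tamoxifen on 3 days, so that only germ cells were meant to lose Prmt1. The study describes its RNA samples as taken after 3 doses of tamoxifen. It does not say separately whether the controls received them. The labels call the sorted controls WT, whereas the sorting protocol of the study names a heterozygous lox allele for its controls, and the 2 descriptions could not be reconciled here. CUT&Tag was done on tubule cell suspensions without sorting, from C57BL/6J mice for WT and from Prmt1-dKO mice for 2 lists of H4R3me2s at P7. The P14 samples are titled spermatogonia and annotated as spermatocytes, and the peak names inside their H4R3me2s lists carry a day tag other than that of the labels, so the age behind each H4R3me2s value given for P14 is uncertain. The labels do not say that replicates came from separate animals, so p-values measure the spread between these libraries, which may be partly technical.

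Libraries held 12396345 to 16598249 counts in bulk and 15610392 to 18547103 in Smart-seq2. Prmt1 itself, the targeted gene, had TPM values (abundance scaled for transcript length and library) of 652, 604 and 638 in WT and 410, 433 and 402 in dKO bulk libraries, and of 350 and 239 against 179 and 151 in Smart-seq2. The genotypes did not overlap in either assay, although a sum over the gene checks the deletion of 2 exons only in part. Among germ cell markers, Ddx4 and Dazl were present in all 4 sorted libraries, at 80.8 to 117 and 323 to 417 TPM. Of the 14 germ cell markers, 2 were lower and 5 higher in dKO sorted cells at an unadjusted p under 0.05 by edgeR, and 11 of the 14 differences were positive. Their sum was 3670 and 3650 TPM in WT and 3030 and 2920 in dKO, with Tex101 taking 1580 and 1590 TPM of it in WT and 651 and 628 in dKO. In bulk 1 fell, Ddx4 itself (log2 fold change -0.67, edgeR FDR 0.0184), and 1 rose. In the sorted libraries Adgre1, a defining macrophage gene, was listed at 0 in all 4. Other macrophage markers, however, were not: the 10 of them summed to 5.02 and 0 TPM in the WT and 72 and 59.9 TPM in the dKO sorted libraries. The 14 Sertoli cell markers summed to 319 and 310 TPM in WT and 449 and 620 in dKO sorted libraries. In bulk they summed to 6920 to 7560 TPM in WT and 4870 to 5300 in dKO, the 9 Leydig cell markers to 823 to 925 and 285 to 324, and the 7 peritubular cell markers to 854 to 933 and 295 to 524. By edgeR, 5 of 14, 5 of 8 and 6 of 7 tested markers of these lists fell and 0, 1 and 0 rose, while of the 10 macrophage and 7 endothelial markers 3 rose and 1 fell in each. The dKO replicate 2 of bulk RNA-seq stood apart from the others, with ribosomal protein genes at 25.4% of all TPM against 19.4% and 21.3% in the other dKO libraries and 14.3% to 15.8% in WT. In Smart-seq2 these genes took 10.6% and 11% in WT and 16.4% and 14.9% in dKO, and 17069 and 15572 genes had a count in WT against 21350 and 20159 in dKO.

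SR proteins hold an RNA recognition motif and a tail rich in arginine and serine. They bind sequences in exons and help the spliceosome to find neighbouring splice sites, and several also act in RNA export and translation. SRPK kinases phosphorylate the tail in the cytoplasm so that the proteins can enter the nucleus, and CLK kinases phosphorylate it further there. Many SR genes limit their own output by splicing in an exon with a stop codon or by keeping an intron, so that the transcript is destroyed by nonsense-mediated decay. In GENCODE vM21, 9 of the 10 genes have a transcript annotated as a target of nonsense-mediated decay, against 20.8% of 21951 protein-coding genes, and 8 have one that retains an intron, against 41.5%. Srsf10 has neither and Srsf9 has no retained-intron transcript. The 10 genes have 85 annotated transcripts, all 85 of which are in the deposited tables, from 4 each for Srsf4 and Srsf6 to 19 for Srsf11. The median protein-coding gene has 3, so the 10 genes have more chances of holding either class.

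The starts of these genes lie in GC-rich sequence. RefSeq promoter sequences of GRCm38.p6, from 250 bases before to 50 after the start, were found for 10 of 10 genes in 13 entries. Their GC content was 56% to 78.3% with a median of 69%, against a median of 53% over 32544 distinct promoters of the same length, and the observed over expected frequency of CpG was 0.8 to 1.23 against a median of 0.39. A GC box (GGGCGG on either strand) was found at 9 of 10 genes, against 35.9% of all promoters. The exception was Srsf3, which holds a TATA box (TATAAA) and a CCAAT box (CCAAT). Of the other motifs searched on both strands, a TATA box was also found at Srsf2 (13.6% of all promoters), a CCAAT box at Srsf1, Srsf2 and Srsf10 (37.4%), an ETS site (CCGGAAGT) at Srsf4, Srsf5 and Srsf11 (3.92%), an NRF1 core (GCATGCGC) at Srsf7 and Srsf11 (2.73%) and a ZBTB33 core (CTCGCGAG) at Srsf4 and Srsf10 (0.928%), and a cAMP response element (TGACGTCA, 1.8%) was found at none. An ETS site and a GC box share 1 base at Srsf5, GC boxes overlap each other at Srsf2, and the NRF1 matches at Srsf11 overlap each other.

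The promoters of Srsf4, Srsf7, Srsf5 and Srsf3 are printed, since the genotype effect on Srsf4 and Srsf7 differed between the assays and Srsf5 and Srsf3 were called by DESeq2 in bulk. Capitals mark the motifs. The Srsf4 entry is chr4:131873387-131873686 on the plus strand, Srsf7 is chr17:80207256-80207555 on the minus strand, Srsf5 is chr12:80945249-80945548 on the plus strand and Srsf3 is chr17:29032410-29032709 on the plus strand. Each is written from 5′ to 3′ on the strand of its gene.
Srsf4: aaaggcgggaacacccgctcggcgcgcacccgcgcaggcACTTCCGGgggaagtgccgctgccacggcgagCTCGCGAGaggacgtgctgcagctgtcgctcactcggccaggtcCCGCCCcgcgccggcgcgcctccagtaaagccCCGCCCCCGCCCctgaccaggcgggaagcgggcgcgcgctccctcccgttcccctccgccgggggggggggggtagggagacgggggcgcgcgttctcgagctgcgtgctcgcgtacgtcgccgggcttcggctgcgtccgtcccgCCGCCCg
Srsf7: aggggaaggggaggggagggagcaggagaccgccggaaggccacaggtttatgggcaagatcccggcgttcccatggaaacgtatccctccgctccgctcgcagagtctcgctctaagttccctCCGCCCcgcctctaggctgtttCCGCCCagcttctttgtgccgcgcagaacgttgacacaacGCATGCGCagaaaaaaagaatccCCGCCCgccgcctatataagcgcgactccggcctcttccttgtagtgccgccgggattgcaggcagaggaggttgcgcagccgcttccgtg
Srsf5: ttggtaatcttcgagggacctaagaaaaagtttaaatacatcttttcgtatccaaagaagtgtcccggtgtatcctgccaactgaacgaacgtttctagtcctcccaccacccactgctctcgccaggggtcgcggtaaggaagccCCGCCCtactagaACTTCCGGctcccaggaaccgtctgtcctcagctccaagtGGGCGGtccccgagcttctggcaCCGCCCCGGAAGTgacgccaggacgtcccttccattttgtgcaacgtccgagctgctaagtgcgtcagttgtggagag
Srsf3: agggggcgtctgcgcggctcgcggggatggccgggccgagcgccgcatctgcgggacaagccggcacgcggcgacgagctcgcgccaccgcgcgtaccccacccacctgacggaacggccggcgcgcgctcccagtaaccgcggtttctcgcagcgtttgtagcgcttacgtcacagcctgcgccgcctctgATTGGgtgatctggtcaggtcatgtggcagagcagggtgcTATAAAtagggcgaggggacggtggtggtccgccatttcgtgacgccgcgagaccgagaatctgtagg
The Srsf4 promoter carries an ETS site, a ZBTB33 core and 4 GC boxes, and that of Srsf7 an NRF1 core 64 bases before the start, counted at the first base of the motif, among 3 GC boxes. In Srsf5 the second ETS site, 23 bases before the start, runs into a GC box.

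All 10 genes were transcribed in every library. In WT testis the highest level was that of Srsf2, a factor with broad roles in exon recognition, with 467, 485 and 438 TPM, followed by Srsf5 with 420, 407 and 382 TPM. These 2 did not overlap, whereas Srsf1 (322 to 344 TPM) and Srsf9 (318 to 358 TPM) did. The lowest was Srsf4 at 122, 122 and 118 TPM, under the range of 149 to 190 TPM that Srsf10 and Srsf11 shared. The 10 genes summed to 2919, 2857 and 2686 TPM in WT, and to 2823, 1964 and 2839 TPM in dKO testis, where the low sum is that of replicate 2.

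**Figure D1:**
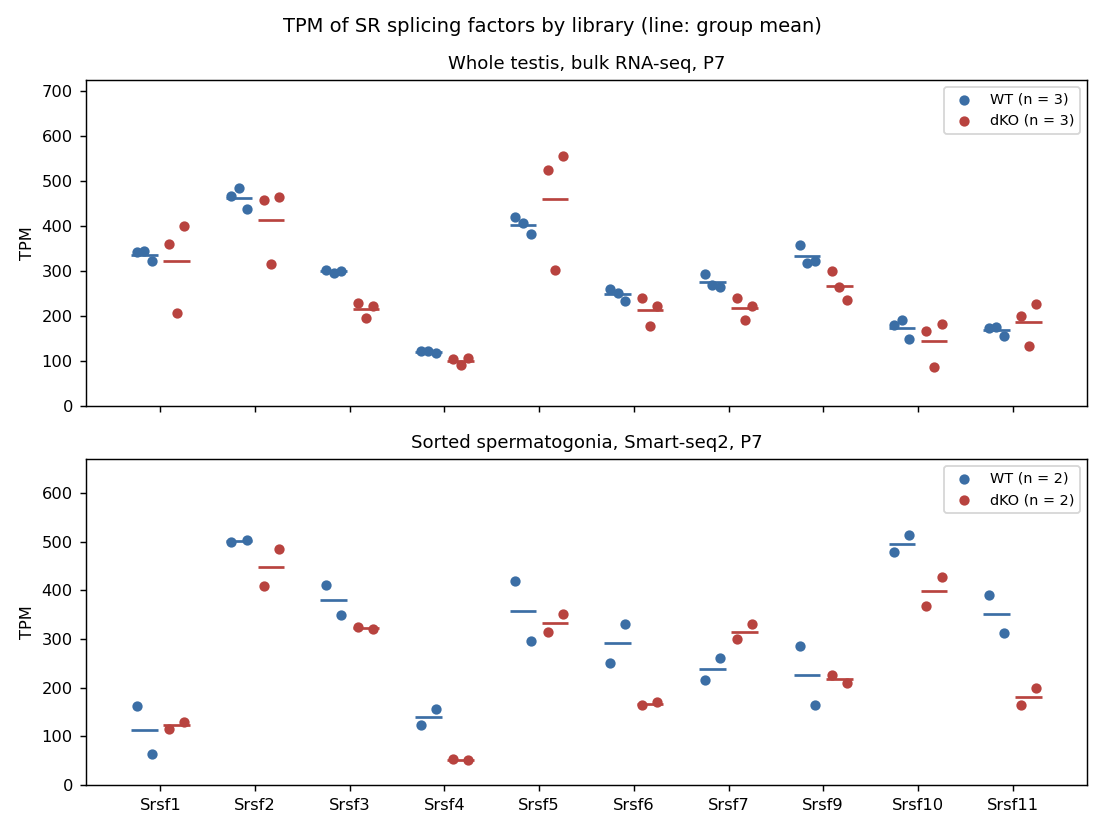
TPM of each SR splicing factor in each library, with whole testis above and sorted spermatogonia below, WT in blue, dKO in red and a line at each group mean. In Smart-seq2 both dKO points of Srsf4 lie at 51.9 ± 1.56 TPM (SD, n = 2), below 140 ± 23.3 TPM (SD, n = 2) in WT, and 1 of the 3 dKO points lies low for most genes in bulk.

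In sorted WT spermatogonia the order was different. Srsf2 was again the highest at 500 and 504 TPM, but Srsf10, which can act as a repressor of splicing when dephosphorylated, stood beside it at 479 and 513 TPM, having ranked 8 of 10 in the testis. Srsf10 and Srsf2 did not differ beyond their spread. Srsf1, a founding member of the family, ranked 3 of 10 in the testis and last here, although its 2 WT libraries held 163 and 63.4 TPM, a ratio of 2.57 that was the largest of the 10 genes between the WT replicates. Of 11013 genes at 1 TPM or more in both WT libraries, 27.8% differed by 2-fold or more between them. The 2 assays differ in protocol and input, and no test was made of levels between them.

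In bulk RNA-seq the number of SR genes called between the genotypes was near the share over all genes. Differences were tested on counts with edgeR, scaled by TMM, over 16554 genes. Of these, 3158 passed at an FDR (false discovery rate, the Benjamini-Hochberg adjusted p) below 0.05, which is 19.1%, with 8.51% lower and 10.6% higher in dKO. Of the 10 SR genes, 1 was higher (Srsf5) and 0 were lower, with 2 at an unadjusted p under 0.05 (33.9% of all genes) and with 1 higher and 1 lower by DESeq2 (17.6% of 22320 genes in either direction). At a change of 2-fold or more, 7.1% of all genes and 0 of the 10 passed. Differences were negative for 7 and positive for 3, with a median log2 fold change of -0.09 against 0.02 over all genes tested. Without dKO replicate 2 the median was 0.04, and 2 were higher and 1 lower, against 16.4% and 15.2% of all genes tested in that fit. In whole testis, fewer cells of a type and less RNA per cell cannot be told apart. The Sertoli, Leydig and peritubular cell markers given above moved with genotype in these libraries, and their part in the values of the SR genes was not tested.

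Srsf5, whose transcripts respond to serum and insulin in other cells, had counts scaled for library size by TMM (CPM) of 386, 372 and 367 in WT and 560, 408 and 657 in dKO testis. The groups did not overlap, and dKO replicate 2 was the lowest of the dKO libraries. The log2 fold change was 0.53 ± 0.16 (SE), with FDR 0.0488 by edgeR. The call was lost with RLE size factors (FDR 0.0524), with the replicate block (FDR 0.0912) and with any one library left out other than dKO replicate 2, the FDR then being as high as 0.171, and without dKO replicate 2 the FDR was 7.16e-05 and the log2 fold change 0.70. On the TPM scale the genotypes overlapped, with 420, 407 and 382 in WT and 525, 302 and 557 in dKO.

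Srsf3, a small SR protein that promotes export and joins the control of alternative polyadenylation, had 451, 446 and 460 CPM in WT and 373, 371 and 381 CPM in dKO testis. The 3 dKO libraries lay below the 3 WT libraries and were close to each other, dKO replicate 2 included. The log2 fold change was -0.27 ± 0.09 (SE), and the FDR was 0.0703 by edgeR and 0.0164 by DESeq2. Without dKO replicate 2 the FDR by edgeR was 0.0245. Srsf4 did not overlap between the genotypes either, at 145, 145 and 147 CPM against 131, 139 and 139 CPM, a log2 fold change of -0.10 ± 0.09 (SE, edgeR FDR 0.499). The dKO libraries lay below WT without overlap for 19.9% of all genes and for 2 of the 10, and above it for 20.9% and for 1 of the 10, which is near the share over all genes. In TPM, 4 of the 10 lay lower (Srsf3, Srsf4, Srsf7 and Srsf9) and 0 higher, against 26.6% and 11.1% of genes with a mean of 1 TPM or more.

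Srsf11, a factor of the early spliceosome, gave 222, 214 and 212 CPM in WT and 265, 216 and 305 CPM in dKO testis. Replicate 2 of the dKO lay within the WT range and the other 2 above it. The log2 fold change was 0.28 ± 0.13 (SE), with edgeR FDR 0.178, and 0.40 with FDR 0.00311 without dKO replicate 2. The other 6 genes had log2 fold changes between -0.15 (Srsf9) and 0.03 (Srsf6), with edgeR FDR of 0.413 or more. Srsf1, Srsf2 and Srsf10 had their lowest CPM of the 6 libraries in dKO replicate 2, at 318, 396 and 187 CPM, and their log2 fold changes were 0.00, 0.07 and 0.09 without it. The part of the ribosomal protein share of that library in these values was not tested.

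In sorted spermatogonia, over 16443 genes tested with edgeR, 0 passed at an FDR below 0.05 (0%, and 0% in each direction and at 2-fold), the smallest FDR being 0.0774, while 3911 had an unadjusted p under 0.05 (7.35% lower and 16.4% higher in dKO). DESeq2 called 2438 of 17373 genes, or 14%. Of the 10 SR genes, 2 were lower (Srsf4 and Srsf6) and 1 higher (Srsf7) at an unadjusted p under 0.05 by edgeR, and the same 3 genes were called by DESeq2. The median log2 fold change of the 10 was 0.07 against 0.15 over all genes, but -0.09 with library totals, -0.09 without WT replicate 2 and 0.18 without WT replicate 1.

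Srsf4, one of the larger SR proteins with a long serine-rich tail, is at chr4:131873617-131901706 on the plus strand. It had 178 and 217 CPM in WT and 101 and 86.3 CPM in dKO spermatogonia, so that both dKO libraries lay below both WT libraries. The log2 fold change was -1.08 ± 0.19 (SE), or 0.474 times the WT level, with an edgeR FDR of 0.0774 and a DESeq2 adjusted p of 6.4e-05. Among the 10 genes it was the largest difference by size in either assay, and in TPM the ratio was 0.369. With 1 library left out, the log2 fold change lay between -1.19 and -0.91. The edgeR FDR was 6.38e-06 without WT replicate 1 and 0.000313 without WT replicate 2, where the lone WT library is assumed to vary like the dKO libraries, and 1 without either dKO library.

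Srsf6, a regulator of exon inclusion in skin and muscle genes at chr2:162931528-162937121, had 443 and 571 CPM in WT and 361 and 327 CPM in dKO spermatogonia. The groups did not overlap. The log2 fold change was -0.56 ± 0.18 (SE), with an edgeR FDR of 0.16 and a DESeq2 adjusted p of 0.0177. Srsf7, which binds RNA with a zinc knuckle beside its recognition motif and is at chr17:80200080-80207307 on the minus strand, went the other way, with 183 and 209 CPM in WT and 308 and 306 CPM in dKO. Its log2 fold change was 0.65 ± 0.15 (SE), or 1.57 times the WT level, with an edgeR FDR of 0.078 and a DESeq2 adjusted p of 0.00756. Without WT replicate 1 the edgeR FDR was 0.0024 for Srsf6 and 0.0197 for Srsf7, and without WT replicate 2 it was 0.144 and 0.0024, again with a lone WT library assumed to vary like the dKO libraries. Without either dKO library it was 1 for both. Srsf10 was higher without overlap, at 392 and 431 CPM against 463 and 484 CPM, with a log2 fold change of 0.20 ± 0.14 (SE, edgeR FDR 0.488). Genes without overlap between the genotypes made up 20.3% (lower in dKO) and 36.3% (higher) of all genes, against 2 and 2 of the 10. In TPM, a scale added to this count after the data were seen, 6 of the 10 lay lower (Srsf2, Srsf3, Srsf4, Srsf6, Srsf10 and Srsf11) and 1 higher (Srsf7), against 29.2% and 22.1% of genes with a mean of 1 TPM or more.

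In CPM, the other 6 genes, Srsf1, Srsf2, Srsf3, Srsf5, Srsf9 and Srsf11, differed more between the WT libraries than between the genotype means. Srsf1 had 234 and 155 CPM in WT and 218 and 225 CPM in dKO, and Srsf9, a close relative of Srsf1, had 218 and 125 CPM in WT and 210 and 177 CPM in dKO. Without WT replicate 1 the log2 fold changes of Srsf1 and Srsf9 were 0.54 and 0.64. Without WT replicate 2 they were -0.06 and -0.15, so that the direction rests on which WT library is kept. Srsf2 and Srsf3 were at nearly the same level in both genotypes, with log2 fold changes of 0.00 ± 0.13 and -0.01 ± 0.17 (SE). The macrophage and Sertoli cell markers given above moved with genotype in the same libraries, with 8 of the 9 macrophage markers that could be tested higher in dKO at an unadjusted p under 0.05. So did the ribosomal protein share and the number of genes with a count. Their part in the values of the SR genes was not tested.

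**Figure D2:**
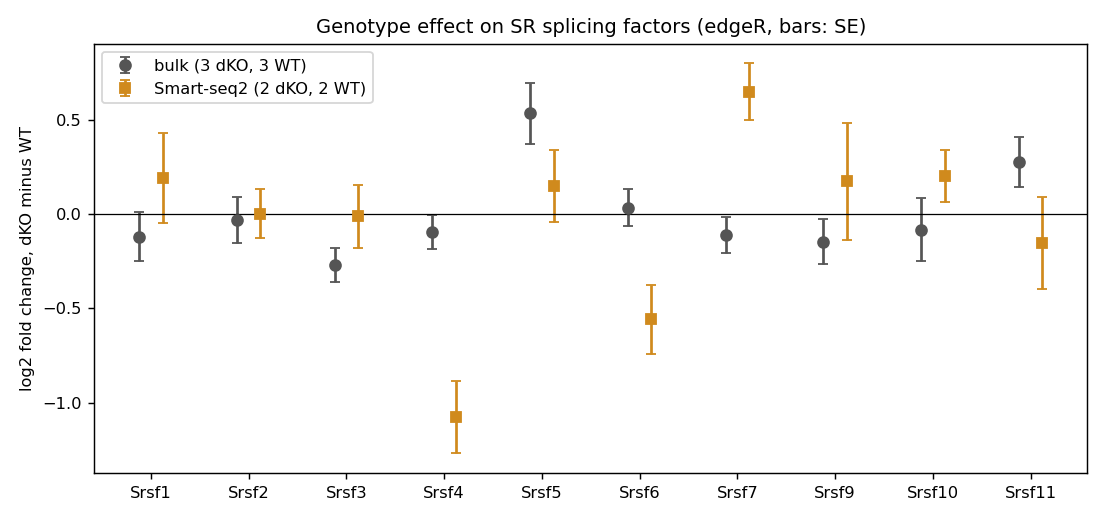
log2 fold change of dKO minus WT for each SR splicing factor, from edgeR, with bars of 1 SE, in bulk (grey circles, 3 against 3 libraries) and in Smart-seq2 (orange squares, 2 against 2 libraries). Srsf4 and Srsf7 are the genes for which the 2 assays lie farthest apart, at -0.10 against -1.08 and at -0.11 against 0.65.

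Whether the genotype effect differed between the assays was tested with an interaction term in 1 edgeR fit over the 10 libraries. The fit took 1 spread per gene for both assays. Fitted apart, the spread over all genes was 0.767 in Smart-seq2 and 0.155 in bulk, as a coefficient of variation. The SE and FDR of this test may therefore be too small. Of 19608 genes, 3722 passed, or 19%, and so did 2 of the 10, Srsf4 and Srsf7. The effect on Srsf4 was 0.89 log2 units lower in Smart-seq2 than in bulk (-0.89 ± 0.17 SE, FDR 0.00781). That on Srsf7 was 0.85 higher (0.85 ± 0.15 SE, FDR 0.00437), its bulk values of 222, 204 and 213 CPM in WT and 207, 195 and 189 CPM in dKO giving a log2 fold change of -0.11 ± 0.10 (SE). The Srsf4 call was lost with the replicate block (FDR 0.0615, against 0.0374 for Srsf7), and with RLE size factors Srsf6 was called as well (FDR 0.0474). Both calls held with any 1 of the 10 libraries left out, the FDR of Srsf4 being 0.0381 at most and that of Srsf7 0.0367. The number of the 10 called was 6 without Smart-seq2 WT replicate 1, where 41.5% of all genes tested passed, and 3 without bulk dKO replicate 2 (17.5%). It was 2 in each of the other 8 such fits, in which 13.2% to 35.5% of all genes passed. The difference was -0.50 ± 0.18 (SE, FDR 0.0881) for Srsf6 and 0.35 ± 0.16 (SE, FDR 0.175) for Srsf3. Assay, cell composition and control genotype cannot be told apart in this test. The other 6 genes had an FDR between 0.383 and 0.749.

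Among the 9 genes of kinases and import factors that act on SR proteins, 2 rose and 0 fell in bulk, both of them CLK kinases, where 10.6% of all genes rose and 8.51% fell. Clk1 was at 95.7, 94.1 and 95.5 TPM in WT and 263, 159 and 273 TPM in dKO testis, with a log2 fold change of 1.38 ± 0.17 (SE, edgeR FDR 0.00174). Clk4 was at 55.3, 49.8 and 46.4 TPM in WT and 93.3, 61.8 and 90 TPM in dKO testis, with 0.92 ± 0.13 (SE, FDR 0.00271). Neither gene overlapped between the genotypes, and dKO replicate 2 was the closest to WT for both. With 1 library left out the FDR was 0.0152 at most for Clk1 and 0.0239 for Clk4. In Smart-seq2, by edgeR at an unadjusted p under 0.05, Clk1 was higher (0.65 ± 0.19 SE, FDR 0.127), as was Srpk2 (0.72 ± 0.21 SE, FDR 0.13), and Clk3 was lower (-0.45 ± 0.16 SE, FDR 0.184).

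Of 15 other factors with a tail rich in arginine and serine, 2 fell and 2 rose in bulk, which is near the shares over all genes (8.51% and 10.6%). Tra2b, which promotes exon inclusion at purine-rich enhancers, fell by 0.44 ± 0.09 (log2, SE, edgeR FDR 0.0127), and U2af2, which binds the polypyrimidine tract, fell by 0.49 ± 0.11 (FDR 0.0175). Luc7l3, a factor of the U1 particle, rose by 0.67 ± 0.17 (FDR 0.027) and Srek1 by 0.46 ± 0.12 (FDR 0.0258). Each of the 4 calls was lost with some library left out, the FDR reaching 0.0765, 0.0793, 0.114 and 0.137 in the order given. The replicate block gave an FDR of 0.0649 for Tra2b, 0.0621 for U2af2 and 0.0827 for Srek1. In Smart-seq2, Rnps1, which sits in the complex left at exon junctions, was lower at an unadjusted p under 0.05 (-0.59 ± 0.17 SE, FDR 0.113).

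Of 15 core spliceosomal proteins 2 fell and 0 rose in bulk, against 8.51% and 10.6% of all genes. They were Sf3a1 of the U2 particle (-0.52 ± 0.10 SE, edgeR FDR 0.0081) and Prpf8, the protein at the catalytic centre (-0.48 ± 0.12 SE, FDR 0.0232). With 1 library left out the FDR reached 0.0549 and 0.111, and with the replicate block that of Prpf8 was 0.0675. In Smart-seq2 Snrpe (0.58 ± 0.18 SE, FDR 0.144), Snrpc (0.49 ± 0.16 SE, FDR 0.156) and Snrpa (0.44 ± 0.15 SE, FDR 0.168) were higher at an unadjusted p under 0.05. Of 10 genes of nonsense-mediated decay, Upf3b rose in bulk (0.55 ± 0.11 SE, FDR 0.0102, up to 0.0763 with 1 library left out) and 0 fell, and 1 of 10 is near the share over all genes (10.6% higher). In Smart-seq2 Smg8 (1.04 ± 0.32 SE, FDR 0.141) and Upf1 (0.66 ± 0.22 SE, FDR 0.158) were higher at an unadjusted p under 0.05.

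The deposited tables also give, per gene and library, a length averaged over its transcripts by their estimated abundance, so that a change in the mixture of transcripts moves it. Lengths were tested with limma on the log2 scale, a test added after the values had been seen. In bulk, 2 of 12403 genes passed at an FDR below 0.05, or 0.0161%, and 0 of the 10 did, with 1718 of all genes at an unadjusted p under 0.05. The genotypes did not overlap for 4 of the 10, against 21.5% of all genes.

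The largest shift on the log2 scale, by a small margin over Srsf1, was that of Srsf5, with 1695, 1704 and 1689 bp in WT and 1873, 1930 and 1913 bp in dKO testis. All 3 dKO libraries lay above WT, dKO replicate 2 being the longest, and the log2 difference was 0.17 ± 0.02 (SE, limma FDR 0.07). The 5 coding transcripts of Srsf5 are annotated with 1489 to 1568 bp and the longest of its 12 transcripts with 3482 bp. A mean above 1568 bp therefore takes in transcripts that are not annotated as coding. Srsf6 had 2747, 2756 and 2743 bp in WT and 2928, 2922 and 2928 bp in dKO testis, with the replicates of each genotype close together and no overlap. Its log2 difference was 0.09 ± 0.01 (SE, limma FDR 0.0888). Its transcripts run from 515 to 3527 bp, and which of them changed is not given by a mean.

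Srsf1 was shorter in dKO testis, 1992, 2158 and 1790 bp against 2252, 2205 and 2165 bp (limma FDR 0.418), and Srsf2 was shorter by a smaller amount, 1850 ± 3.2 bp in WT and 1827 ± 16.9 bp in dKO (SD, n = 3, limma FDR 0.584). The lengths of Srsf4 and Srsf9 were alike in the 2 genotypes, at 2121 ± 4.38 against 2122 ± 48.5 bp and 1159 ± 0.693 against 1160 ± 1.81 bp (SD, n = 3).

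In Smart-seq2, 0 of 9186 genes passed (0%, with 1124 at an unadjusted p under 0.05), as did 0 of the 10. Lengths did not overlap for 3 of the 10 and for 44.3% of all genes. Srsf10 had 1247 ± 14.1 bp in WT and 1491 ± 1.26 bp in dKO spermatogonia (SD, n = 2), a log2 difference of 0.26 ± 0.03 (SE, limma FDR 0.224), and Srsf11 had 1112 ± 132 and 1581 ± 149 bp (limma FDR 0.376). Srsf4 had 1974 ± 52.3 and 2139 ± 4.23 bp (limma FDR 0.398). On the TPM scale, which depends on this length and on the other genes of a library, Srsf10 and Srsf11 were at 0.802 and 0.517 times WT without overlap, while their CPM ratios were 1.15 and 0.898. Srsf3, at 2632 and 2633 bp, had ratios of 0.848 (TPM) and 0.991 (CPM).

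**Figure D3:**
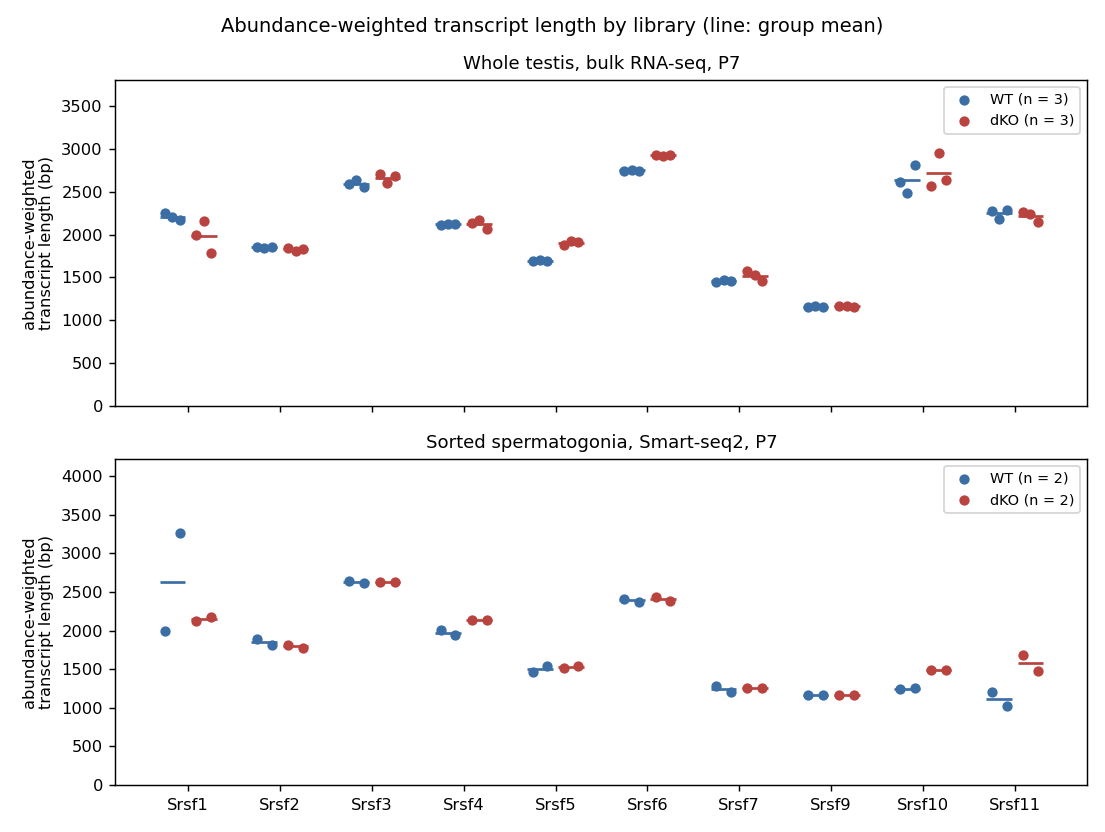
Abundance-weighted transcript length in bp of each SR splicing factor in each library, with whole testis above and sorted spermatogonia below, WT in blue, dKO in red and a line at each group mean. Srsf5 and Srsf6 were longer in all 3 dKO than in all 3 WT libraries of the testis, and Srsf10 and Srsf11 in both dKO libraries of sorted cells.

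CUT&Tag maps where a histone mark sits by cutting the DNA beside an antibody. H3K4me3 marks starts of active genes and H3K27ac active promoters and enhancers. Prmt1 is the main enzyme that places asymmetric dimethylation on arginine 3 of histone H4 (H4R3me2a), while other enzymes place the symmetric form (H4R3me2s) and asymmetric marks on histone H3 (H3R2me2a and H3R8me2a), and H4R3me1 is the monomethyl form. A gene was called marked in a group when at least 2 of its replicate lists held a peak summit within 3000 bp of any of its transcript starts. A gene with more starts has more chances of being marked. The SR genes have from 3 (Srsf6) to 19 (Srsf11) distinct starts, while the median protein-coding gene has 3 transcripts. Peaks were called by the authors per sample, so heights were not compared between lists. A peak here cannot be assigned to an SR gene alone where it shares its start region. Srsf2 lies 201 bp from a start of Mfsd11, Srsf7 153 bp from one of Ttc39d and Srsf11 23 bp from one of Lrrc40, all protein-coding and on the opposite strand. Srsf1, Srsf3 and Srsf5 lie 13, 60 and 108 bp from starts of noncoding genes on the opposite strand (2010015M23Rik, Gm16196 and Gm20337).

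The active marks covered the whole family. H3K4me3 was present at 10 of 10 genes at P7 and at P14, against 60.8% and 63.2% of 21897 protein-coding genes and 88.8% and 89.9% of the 13712 among them with a mean WT bulk TPM of 1 or more. H3K27ac was present at 10 of 10 at both ages, against 31% and 49% of protein-coding and 47.5% and 73.2% of expressed genes. All 31 H3K4me3 peaks at P7 and all 29 at P14 had a summit within 1000 bp of a start.

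H3K4me3 peaks differed in width within the family. Taking the widest peak of each gene in each list, at P7 Srsf3 had the widest in replicate 2 (2340 bp) and Srsf2 in replicate 1 (2395 bp), wider than 99.7% and 99.6% of the peaks of those lists. By the same measure Srsf9 and Srsf11 were the narrowest, at 989 and 1008 bp and at 1054 and 949 bp, against medians of 853 and 793 bp over all peaks of the 2 lists. At Srsf7 the peaks chr17:80205896-80207796 and chr17:80205965-80207740 reached into the printed promoter. At Srsf4 there were 2 peaks in each P7 list, chr4:131873574-131874773 and chr4:131873052-131873406 in replicate 1, leaving a gap within the printed promoter, and 1 peak in each P14 list, chr4:131873070-131874669 and chr4:131873134-131874724, without it.

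**Figure D4:**
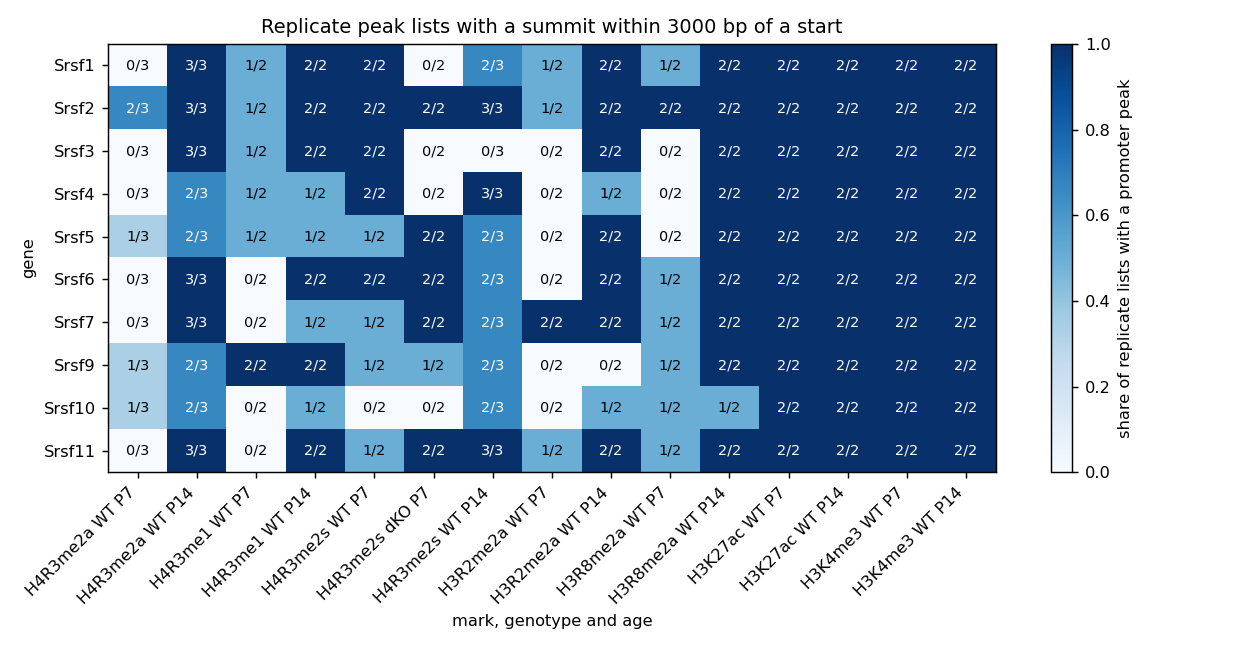
Number of replicate peak lists with a summit within 3000 bp of a start, for each SR splicing factor (rows) and each mark, genotype and age (columns), shaded by the share of lists. The 4 columns of H3K27ac and H3K4me3 are full, and the arginine marks other than H4R3me2s are sparser at P7 than at P14.

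Arginine marks other than H4R3me2s were found at few of these promoters at P7. H4R3me2a was present at 1 gene, Srsf2, against 15.3% of protein-coding and 21.7% of expressed genes. H4R3me1 was present at Srsf9 (10.9% and 15.6%), H3R2me2a at Srsf7 (11% and 15.3%) and H3R8me2a at Srsf2 (9.73% and 14.3%). These shares of 1 in 10 were near the background. H4R3me2s was present at 5 genes in WT, Srsf1, Srsf2, Srsf3, Srsf4 and Srsf6, against 17.8% and 26.5%. A q of at most 0.01 was found for 0 of 5 H4R3me2a, 1 of 7 H4R3me1, 0 of 6 H3R2me2a, 1 of 9 H3R8me2a and 4 of 18 H4R3me2s peaks.

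At P14 these marks were found at more of the genes, and at more protein-coding genes, by the rule of at least 2 lists. H4R3me2a was present at 10 of 10 (49.1% of protein-coding and 66.8% of expressed genes), H3R8me2a at 9 (33% and 48%), H4R3me2s at 9 (34.3% and 50%, with 3 lists at P14 and 2 at P7, and at 3 where all lists were required, against 16.4% of protein-coding genes), H3R2me2a at 7 (51.4% and 69.5%) and H4R3me1 at 6 (29.9% and 43.3%). Counting only peaks with a q of at most 0.01, H4R3me2a was present at 5 (19.4% of protein-coding genes), H3R8me2a at 4 (11.6%), H4R3me2s at 2 (6.57%), H3R2me2a at 5 (28.3%) and H4R3me1 at 3 (10.1%). With lists cut to equal length H3R8me2a was present at 4 (20.8%) and H4R3me2a at 6 (30.8%). With a peak required in all 3 lists, H4R3me2a was present at 6 (29.8%). By the rule of at least 2 lists, the gene not marked was Srsf10 for H3R8me2a, and Srsf3 for H4R3me2s, with a peak in 0 of 3 lists at P14 after 2 of 2 at P7. Srsf4, Srsf9 and Srsf10 were not marked for H3R2me2a, and Srsf4, Srsf5, Srsf7 and Srsf10 were not marked for H4R3me1. Srsf2 and Srsf11 had a peak in each of the 12 arginine lists of P14, and Srsf10 the fewest, in 7.

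Per list, 1 to 2 members had an H4R3me2a peak in the 3 P7 lists and 7 to 10 in the 3 P14 lists, a difference of 7 genes whose exact two-sided permutation p over lists was 0.1, the smallest that 3 against 3 lists allow. The share of protein-coding genes with a peak rose as well, from 19.1% to 20.4% per list at P7 to 44.9% to 51.1% at P14. For H4R3me1 the means were 3.5 and 8 genes, for H3R2me2a 2.5 and 8 and for H3R8me2a 4 and 9.5, each without overlap and with the smallest exact p that 2 against 2 lists allow, which is above 0.1. Per list, the shares of protein-coding genes at P7 and P14 were 22.3% to 25.3% and 41% to 42.8% for H4R3me1. They were 24.2% to 24.4% and 58.4% to 61.6% for H3R2me2a, and 21.1% to 21.6% and 45.1% to 45.4% for H3R8me2a. For H4R3me2s the means were 7 and 7 genes (exact p = 1). All adjusted p over the 8 comparisons of this kind were 0.666 or more. H4R3me2a lists held 16995 to 18722 peaks at P7 and 39597 to 44836 at P14, and with equal list length H4R3me2a was present at 1 gene at P7 (14.7% of protein-coding genes). Age, cell composition and list length cannot be told apart.

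**Figure D5:**
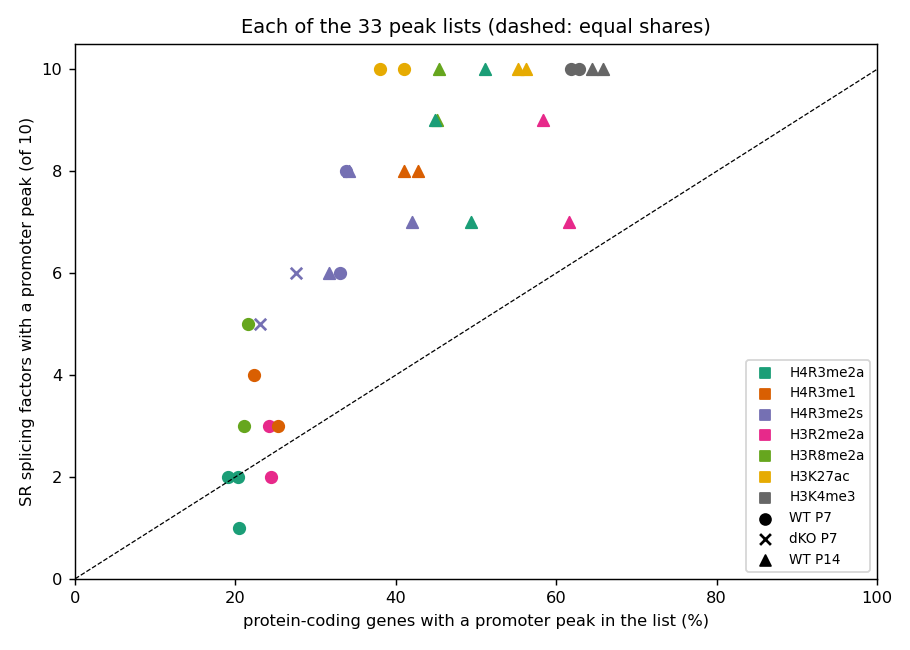
Each of the 33 peak lists by the percentage of protein-coding genes with a promoter peak (horizontal axis) and the number of the 10 SR splicing factors with one (vertical axis), coloured by mark, with circles for WT P7, crosses for dKO P7 and triangles for WT P14. The H4R3me2a lists of P7 lie at 1 to 2 genes near the dashed line of equal shares, and most other lists lie above it.

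In dKO at P7 only H4R3me2s was mapped. It was present at 5 genes, Srsf2, Srsf5, Srsf6, Srsf7 and Srsf11, against 9.84% of protein-coding and 13.9% of expressed genes. Srsf2 and Srsf6 were marked in both genotypes, as were 4.55% of protein-coding genes, but their peaks in WT replicate 1 lay 1373 and 2780 bp from a start. With a window of 1000 bp, 3 genes were marked in WT (Srsf1, Srsf3 and Srsf4) and 5 others in dKO. In that window 13.7% of protein-coding genes were marked in WT and 6.32% in dKO. With equal list length 4 genes were marked in WT and 2 in dKO, against 13% and 4.98% of protein-coding genes. Srsf1, Srsf3 and Srsf4 had a peak in 2 of 2 WT and 0 of 2 dKO lists, as did 5.54% of protein-coding genes. Srsf5, Srsf7 and Srsf11 had one in 1 of 2 WT and 2 of 2 dKO lists, as did 3.38% of protein-coding genes. The means per list were 7 genes in WT and 5.5 in dKO (exact two-sided permutation p = 0.667, in a design too small to reach 0.1). Per list, 33.1% and 33.8% of protein-coding genes had a peak in WT and 27.5% and 23.1% in dKO. At Srsf4 the WT peaks were chr4:131873616-131873815 and chr4:131874160-131874359, each 200 bp wide, and at Srsf7 a dKO peak was chr17:80207105-80207304. None of the 14 dKO peaks at the 10 genes had a q of at most 0.01, so these patterns rest on weak peaks.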

How the data were processed

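The expected counts that the authors deposited for 10 RNA libraries were made with fastp 0.23.2, STAR and RSEM on mm10 and are not normalized. In the same tables the authors deposited TPM, scaled by RSEM within a library, and FPKM, likewise from RSEM and not used here. No source used here states the RSEM version or the annotation, but 98.7% of the 142604 transcripts in the tables have their identifier in GENCODE vM21. Gene lengths (bp) were taken as RSEM's abundance-weighted means, per the file headers. The peak lists hold, as deposited, the −log10 p-value and q-value and the fold enrichment of each peak, which the authors called with MACS2 2.1.0 per sample.

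Counts were rounded, filtered with filterByExpr (at least 10 counts), given TMM factors and fitted in edgeR 4.0.16 (R 4.3.3) by quasi-likelihood, within each assay and, with an interaction term, over both. DESeq2 1.42.0 was an alternative, and lengths of genes with at least 10 counts per library were tested with limma 3.58.1. P-values were adjusted over all genes tested. The scripts were tested on simulated data. TPM, which depends on the mixture of transcripts, served for levels between genes. The study names no pairing of libraries by replicate number, so the main fits have no block.

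Genes named are the 10 members, Prmt1 and, from 4 lists of splicing and decay genes, up to 3 per direction with the largest change past the threshold stated beside them. Members and lists were chosen with earlier results of these data known.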

Additional observations from a re-analysis of the deposited data

Results flagged for a closer look

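The genotype effect differed between the 2 assays for Srsf4 and Srsf7 by the interaction test of edgeR. For Srsf4 the log2 difference of Smart-seq2 minus bulk was -0.891 (FDR 0.00781), with -1.08 in sorted cells and -0.10 in testis, and both dKO libraries of sorted cells lay below both WT libraries. For Srsf7 it was 0.85 (FDR 0.00437), with 0.65 in sorted cells and -0.11 in testis, and the dKO libraries of sorted cells lay above both WT libraries. The share of all genes that passed this test was 19%, and with the replicate block Srsf4 did not pass (FDR 0.0615). The test took a shared spread for the 2 assays, which may make these FDRs too small. Macrophage marker TPM, at 5.02 and 0 in WT against 72 and 59.9 in dKO, differed in the same sorted libraries, and its part in these values was not tested.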

How the results depend on the processing

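Of 405 values under alternatives of 50 results, 311 were classed as unchanged. Of these, 161 were log2 fold changes of single genes that kept direction and call. The other 150 were counts or medians within a set margin of the main value, whatever the direction or call. In bulk, DESeq2 called 1 of the 10 lower (Srsf3). Srsf5 was not called with RLE size factors or the replicate block (FDR 0.0912), which leaves 0 higher, and Srsf2 was 0.014 with library totals. Without 1 library, 0 to 2 were higher and 0 to 1 lower (4.97% to 16.4% and 2.8% to 15.2% of all genes), with a median of -0.113 to 0.037, all 3 maxima being without dKO replicate 2. Log2 fold changes then ran from -0.214 to 0.004 for Srsf1, -0.127 to 0.07 for Srsf2, -0.012 to 0.078 for Srsf6 and -0.262 to 0.088 for Srsf10. In TPM the genotypes did not overlap for 4 lower and 0 higher in bulk and 6 lower and 1 higher in Smart-seq2. In Smart-seq2, DESeq2 called 1 higher and 2 lower (8.34% and 5.69% of all genes). Srsf2 was -0.047 with DESeq2, -0.043 with RLE, -0.167 with library totals and -0.003 without a filter. With library totals Srsf5 was -0.02 and the median -0.094. Without 1 library, 0 to 3 were higher and 0 to 2 lower, with a median of -0.088 to 0.176, against 0% to 34.1% of all genes higher and 0% to 17.1% lower. Log2 fold changes then ran from -0.059 to 0.537 for Srsf1, -0.047 to 0.052 for Srsf2, -0.117 to 0.137 for Srsf3, -0.031 to 0.389 for Srsf5, -0.155 to 0.643 for Srsf9 and -0.408 to 0.199 for Srsf11. The interaction was called for 2 to 6 of the 10 without 1 library, fits chosen after seeing the data, and for 1, Srsf7, with the replicate block. Same-numbered WT and dKO libraries deviated together with r of -0.221 to 0.082 in bulk and 0.018 in Smart-seq2. With so few libraries this can neither show nor exclude a pairing. Promoter counts at a q of at most 0.01 were 0 at P7 for H4R3me2a, H4R3me1, H3R2me2a, H3R8me2a and H4R3me2s in dKO (0.247% to 1.05% of protein-coding genes). They were 1 for H4R3me2s in WT at P7 (1.56%), and 5, 3, 4 and 2 at P14 for H4R3me2a, H4R3me1, H3R8me2a and H4R3me2s (19.4%, 10.1%, 11.6% and 6.57%). With equal list lengths they were 6 (H4R3me2a P14, 30.8% of protein-coding genes), 4 (H3R8me2a P14, 20.8%) and 2 (H4R3me2s dKO, 4.98%). With a peak required in all lists they were 0 and 6 for H4R3me2a at P7 and P14 (4.28% and 29.8%) and 3 for H4R3me2s at P14 (16.4%). With a window of 1000 bp the count was 3 for H4R3me2s in WT at P7 (13.7%). Without 1 list, a peak was required in every list left. The counts were then 0 to 1 and 6 to 9 for H4R3me2a at P7 and P14, and 4 to 6 for H4R3me2s at P14. Groups of 2 lists were left with a single list, so the rule of at least 2 lists no longer held. At P7 such single lists gave 3 to 4 for H4R3me1 (22.3% to 25.3% of protein-coding genes) and 2 to 3 for H3R2me2a (24.2% to 24.4%). They gave 3 to 5 for H3R8me2a (21.1% to 21.6%) and 6 to 8 for H4R3me2s in WT (33.1% to 33.8%). The cause of these changes was not tested. With 2 libraries per genotype in Smart-seq2, whose dispersion was 0.767 as a coefficient of variation against 0.155 in bulk, calls depend on the tool.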
